A study of Homo sapiens with 9 samples.

Results

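RN7SK encodes 7SK, the small nuclear RNA that holds the CDK9 kinase in check, and the report describes how CDK9 and DDX21 occupied this gene in A375 cells. The gene spans 332 bp on chromosome 6, chr6:52860418-52860749 in hg19, the build of all coordinates given here. Its members were selected by position: every peak of the 6 deposited lists that overlapped chr6:52855000-52866000 was taken, which gave 4 of 27469 peaks. The gene was singled out because its CDK9 peaks were known to be strong, so its presence, rank and size are descriptions and carry no test.

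A375 is a human melanoma cell line. Cells of 3 groups were compared by chromatin immunoprecipitation and sequencing, which recovers the DNA next to a protein: cells given 25 µM A771726, cells given 25 µM A771726 with added nucleotides, and cells given the solvent DMSO, each for 24 h. A771726 is the active form of leflunomide and blocks dihydroorotate dehydrogenase, an enzyme of pyrimidine synthesis. Each treatment had 1 library with an antibody to CDK9 and 1 with an antibody to DDX21, so no difference between treatments can be set against a replicate error. The nucleotides and their dose are not named in the labels, and the 3 inputs were not analysed here. The lists hold binding sites and no expression values, so the cell line could not be checked against its marker genes.

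The 7SK RNA is made by RNA polymerase III and stays in the nucleus as a scaffold. With the proteins HEXIM1 or HEXIM2 it binds P-TEFb, the complex of CDK9 and a cyclin T, and keeps the kinase inactive, while LARP7 and the capping enzyme MEPCE stabilise the RNA. P-TEFb that leaves 7SK phosphorylates RNA polymerase II and its pausing factors, and paused polymerases then move on into genes. DDX21 is a DEAD-box RNA helicase of the nucleolus that is also known, in human cells, to bind 7SK RNA and to promote the release of P-TEFb from it. The measurements here concern DNA at the gene that encodes 7SK, and not the RNA.

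CDK9 had a peak over RN7SK under all 3 treatments, and DDX21 had a peak there in DMSO alone. The CDK9 lists held 1 peak each in the 11 kb window. The DDX21 lists held none with A771726, none with A771726 and nucleotides, and 1 in DMSO. For CDK9, 5.4% of the 3462 DMSO peaks (187 peaks, exact Clopper-Pearson 95% interval 4.67 to 6.21) overlapped a peak of the A771726 list by at least 1 bp. Among the highest decile of DMSO peaks, to which RN7SK belonged, the share was 29.8% (25.0 to 34.9). The strongest DMSO peaks mostly had one, 7 of the top 10 and 35 of the top 50, so a peak with A771726 at RN7SK was usual for its rank. Read the other way, 77.6% of the 290 peaks with A771726 overlapped a DMSO peak. With nucleotides the share of DMSO peaks found was 45.2% over the list and 91.6% in the highest decile. A peak under all 3 treatments was found at 167 DMSO sites, or 4.82% (4.13 to 5.59), RN7SK included.

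The CDK9 peaks covered the whole gene and a short stretch on both sides. With A771726 the peak was 444 bp wide and ran from 60 bp before the gene to 52 bp beyond it, at chr6:52860358-52860801. With nucleotides the peak was 519 bp wide, at chr6:52860301-52860819, and in DMSO it was 535 bp wide, at chr6:52860273-52860807. The 3 peaks reached 52, 70 and 58 bp beyond the upper end of the gene and differed more at the lower end, where they reached 60, 117 and 145 bp outside it. Their summits, the positions with the most fragments, lay inside RN7SK at base 273 with A771726, base 242 with nucleotides and base 259 in DMSO, counted from the lower end of the gene. The summits were at most 31 bp apart, all past the middle of the gene towards its upper end.

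**Figure D1:**
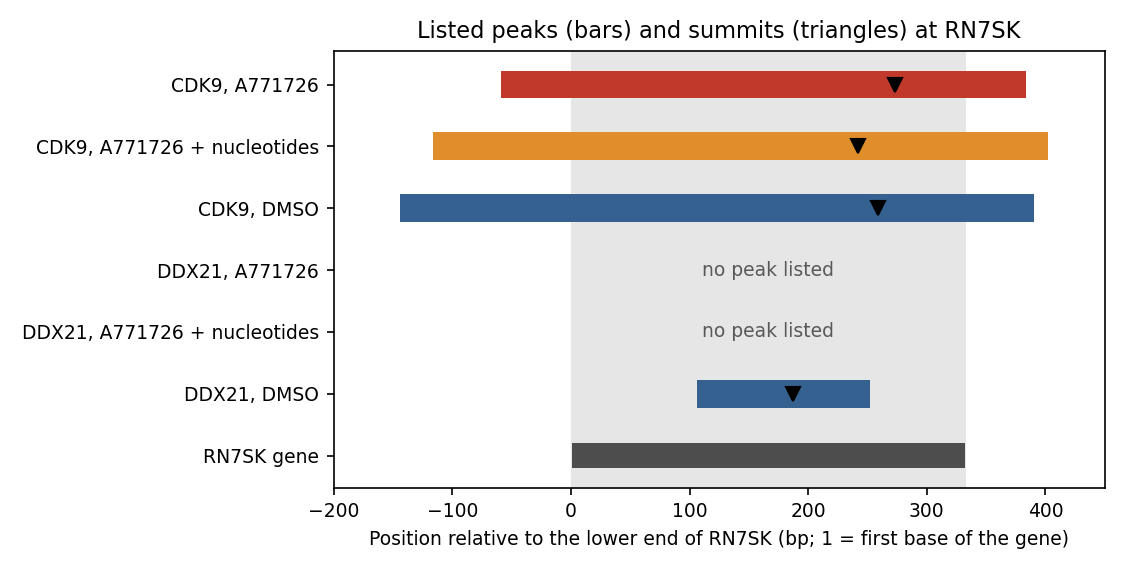
Listed peaks at RN7SK in the 6 lists, as bars over the position in bp from the lower end of the gene, with triangles at the summits and the 332 bp gene in grey. All 3 CDK9 peaks cover the gene with summits at bases 242 to 273, while the DDX21 peak of DMSO cells lies within the gene with its summit at base 187.

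RN7SK was at or near the top of the CDK9 lists with A771726 and in DMSO, and lower with nucleotides. Ranked by −log10 q, the significance the authors' peak caller gave each peak, it was the first of 290 peaks with A771726, number 35 of 3099 with nucleotides and number 2 of 3462 in DMSO. Its −log10 q was 58.3, 29.2 and 56.8 in that order. In the A771726 list it stood well clear of the next peak, which had 40.8, whereas in DMSO the peaks on either side of it had 57.2 and 55.6. The strongest CDK9 peak both in DMSO and with nucleotides lay on chromosome 9 (chr9:22158906-22159453 in DMSO) and was number 24 with A771726. RN7SK itself lay within the first 1.13% of each list. Ranked by width, RN7SK was number 5 with A771726, number 197 with nucleotides and number 177 in DMSO.

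**Figure D2:**
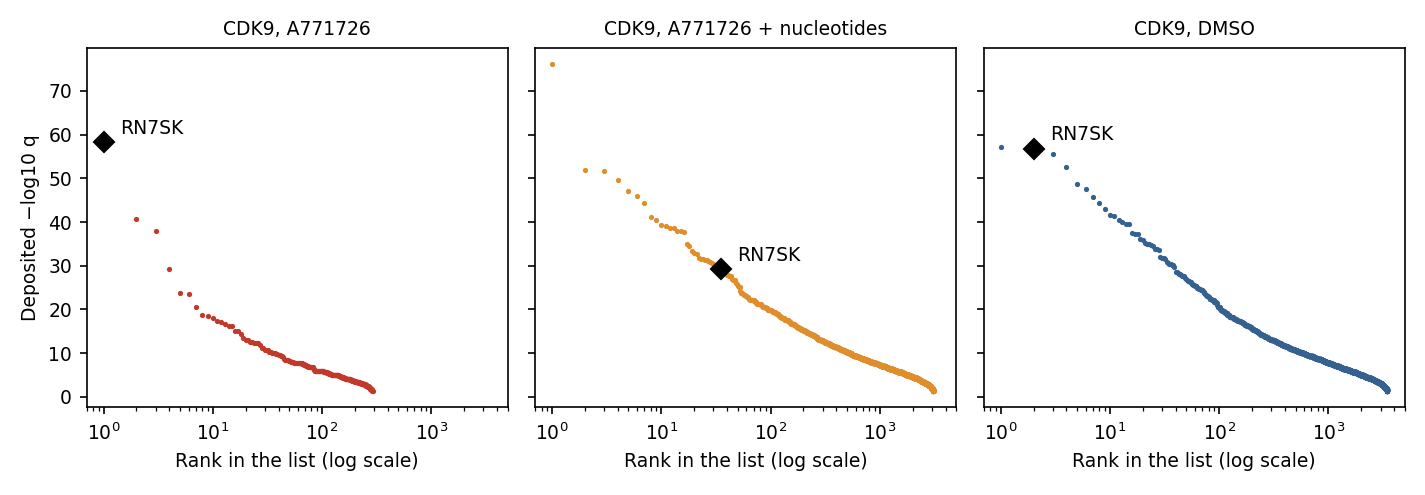
Deposited −log10 q of every CDK9 peak against its rank (log scale) with A771726, with A771726 and nucleotides, and in DMSO, with RN7SK as a black diamond. RN7SK is first with A771726 at 58.3, number 35 with nucleotides at 29.2 and number 2 in DMSO at 56.8.

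The number of fragments over the summit was worked out from the deposited fold enrichment and p-value and is called the pileup. RN7SK had a CDK9 pileup of 57 fragments with A771726 (exact Poisson 95% interval 43.2 to 73.9), 67 with nucleotides (51.9 to 85.1) and 74 in DMSO (58.1 to 92.9). These intervals cover counting error only. Few CDK9 peaks of any list were taller: by pileup RN7SK was number 2 with A771726, number 36 with nucleotides and number 23 in DMSO. The median peak of these lists had 15, 24 and 23 fragments.

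Whether CDK9 at RN7SK was higher or lower with A771726 than in DMSO depended on the scale and cannot be stated. The raw pileup ratio was 0.770 (exact conditional binomial 95% interval 0.536 to 1.10). Divided by the lowest background of each list, which is 0.521 fragments with A771726 and 1.17 in DMSO, the pileups became heights of 109 and 63.2, with a ratio of 1.73 (1.20 to 2.48). The libraries appear to have been extended to fragments of different length, since the shortest peak, taken as that length, was 50 bp with A771726 and 128 bp in DMSO. Scaled for the estimated number of tags alone, which was 1.14 times that of DMSO, the ratio was 0.676 (0.470 to 0.969). At a given position a longer extension can only add fragments, so 57 is a lower bound for this library at the DMSO length.

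With nucleotides the extension was 129 bp, close to that of DMSO, and the pileups could be set side by side. The height at RN7SK was 53.9 with nucleotides and 63.2 in DMSO, a ratio of 0.852 (0.603 to 1.20), within counting error. Height with A771726 was 2.03 times that with nucleotides (1.40 to 2.94), a ratio that carries the same doubt over scale as that to DMSO, and the raw pileups of 57 and 67 gave 0.851 (0.587 to 1.23). The highest pileup of a list was 2.0 times its shortest peak with nucleotides and in DMSO, as would follow if a single tag were kept per position on each strand. With A771726 it was 1.38 times, 69 fragments over 50 bp, so that list did not reach such a limit. RN7SK stood at 57% of it with A771726, at 26.0% with nucleotides and at 28.9% in DMSO. Whether such a limit lowered these pileups was not tested.

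The deposited fold enrichments differed more than the pileups, and the local background differed with them. RN7SK had a fold enrichment of 21.8 with A771726, the highest of that list, 6.79 with nucleotides, number 210 of its list, and 14.5 in DMSO, the second highest. The background at the summit was 1.66 fragments with A771726, 9.01 with nucleotides and 4.16 in DMSO. Backgrounds moved in steps of 0.415, 0.693 and 0.693 fragments in these lists, and 46.6%, 62.7% and 59.4% of peaks had a background within 0.01 step of a whole multiple. At RN7SK the background was 13 steps with nucleotides and 6 in DMSO, and 4 of the estimated steps with A771726. The step with A771726 may be too small. The backgrounds seen most often at the shared sites of that list, such as 1.66, 2.49 and 3.32, were multiples of 0.829. Its 4 steps are therefore not read as control fragments. If a step of the other lists is 1 control fragment, as the peak caller's usual method would give, exact Poisson 95% intervals can be set. They are 6.92 to 22.2 fragments with nucleotides and 2.20 to 13.1 in DMSO. The direct ratio of steps was 2.17 for nucleotides over DMSO (exact conditional binomial 95% interval 0.768 to 6.95). No ratio of steps is given for A771726, because its step is uncertain. The fold ratio of nucleotides over DMSO, 0.467, thus stood beside a height ratio of 0.852 and a background of 13 against 6 steps.

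**Figure D3:**
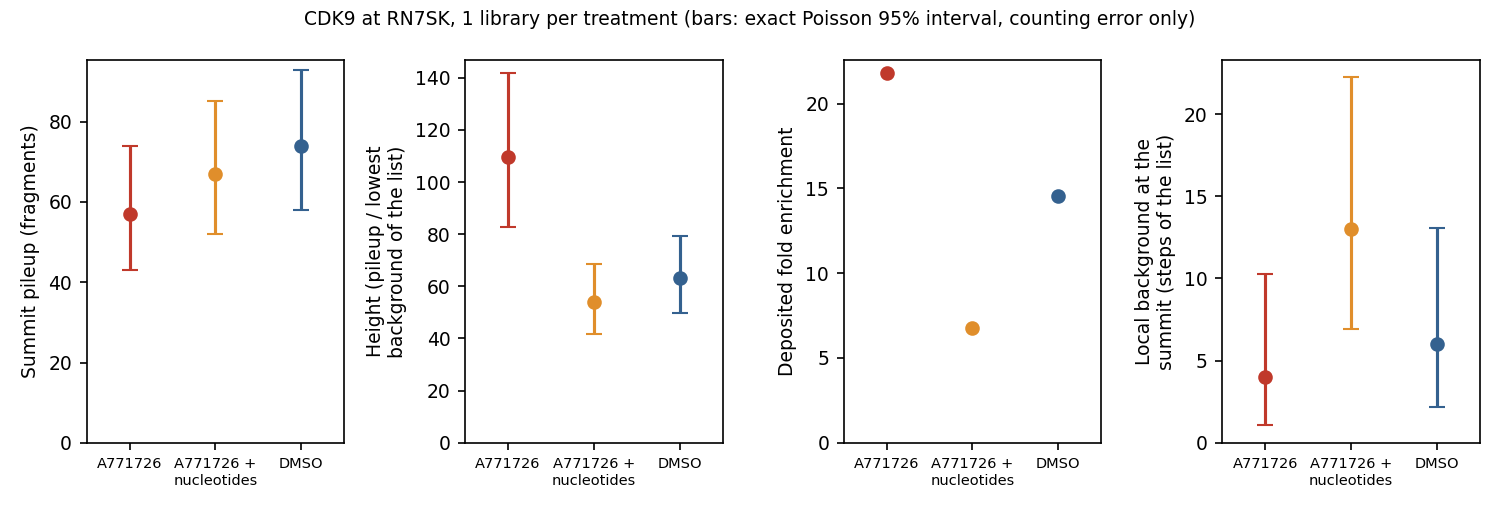
CDK9 at RN7SK with A771726, with A771726 and nucleotides, and in DMSO, 1 library each: summit pileup in fragments, pileup over the lowest background of the list, deposited fold enrichment, and local background in steps of the list. Bars are exact Poisson 95% intervals, and the order of the treatments changes from pileup (57, 67 and 74) to height (109, 53.9 and 63.2). The step estimated with A771726 may be too small, so its point and bar in the last panel cannot be set beside the others.

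Set against other CDK9 sites of the same libraries, RN7SK had a high pileup ratio of A771726 over DMSO. Its raw ratio of 0.770 compares with a median of 0.410 over the 166 other sites that had a peak in all 3 lists, from 0.195 to 1.63. On this measure 93.4% of the other sites were lower, and RN7SK was number 12 of 167. Scaling by a library's tags or lowest background multiplies all ratios alike and leaves this position as it is. As heights, RN7SK had a ratio of 1.73 and the other sites a median of 0.923, from 0.439 to 3.65. A raw ratio below 1 therefore does not show a loss of CDK9 with A771726. How a longer extension would add fragments at each site was not tested, and by ratios of fold enrichment RN7SK was number 31, with 81.9% of the other sites lower. Sites with a low pileup in DMSO enter this set only if their pileup with A771726 was high enough to be called, so the low end of the ratios is missing among weak sites.

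Sites that were as tall as RN7SK in DMSO had lower ratios. The 16 other shared sites with at least 74 fragments in DMSO had 16 to 69 with A771726, with a median of 30. Their raw ratios ran from 0.203 to 0.584, and their height ratios from 0.455 to 1.31. The side of 1 thus carries the same doubt over scale as at RN7SK. The tallest of them with A771726, at chr11:62608864-62609354, had 69 fragments against 128 in DMSO and was the only one of the 166 taller than RN7SK with the drug. Of the 50 strongest DMSO peaks, 35 had a peak with A771726 and all 50 had a peak with nucleotides. The 34 shared sites among them other than RN7SK had a median raw ratio of 0.338 and a highest of 0.429. As heights these were 0.761 and 0.963. All 11 sites above RN7SK in the ratio had at most 36 fragments in DMSO and at most 43 with A771726, and 4 of them lay in 1 stretch of chromosome 2. Sites are DMSO peaks, so they are not all separate with A771726. There chr2:224902779-224903702 and chr2:224903766-224903975 overlap the same peak, of 39 fragments.

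**Figure D4:**
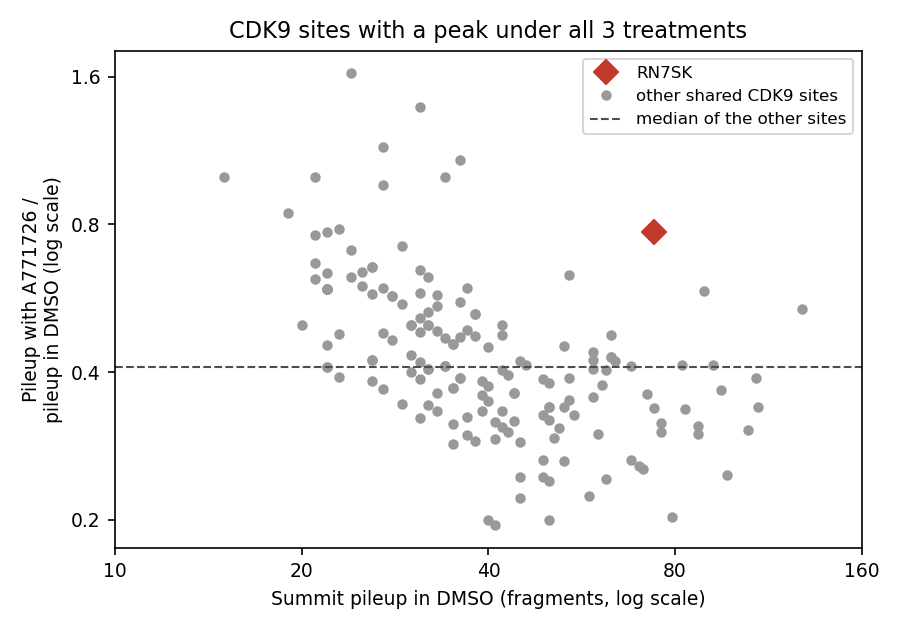
Pileup with A771726 divided by pileup in DMSO (log scale) against the pileup in DMSO (fragments, log scale) for the 167 CDK9 sites with a peak under all 3 treatments, RN7SK as a red diamond. RN7SK lies at 0.770 and 74 fragments, above every site that has at least 74 fragments in DMSO, and the dashed line is the median of the other sites, 0.410. These are raw ratios. As heights RN7SK had 1.73 and the median was 0.923, so the side of 1 depends on the scale.

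Among the other top peaks of the A771726 list, high ratios came with DMSO pileups below that of RN7SK. These pileups were still above the median of the DMSO list, 23 fragments. Number 2, at chr2:224902751-224904031, had 39 fragments with A771726, 54 with nucleotides and 36 in DMSO. Number 3, at chr12:112704998-112705096, had 43, 22 and 31, and number 4, at chr2:76672377-76672477, had 31, 27 and 27. Number 5, at chr22:42961096-42961188, had 26, 19 and 27. RN7SK, with 57, 67 and 74, was taller than these in each list. On raw pileups the top DMSO sites were lower with A771726 than in DMSO. The first, on chromosome 9, had 35, 105 and 95 fragments, and the third, at chr3:149293237-149294375, had 26, 52 and 87. The fourth, at chr1:149223655-149224240, had 37, 87 and 109, and the fifth, at chr9:22147625-22148652, had 28, 72 and 83. These raw pileups carry the same doubt over scale as at RN7SK. Top peaks of each list were also picked for their strength in that list. Such a choice favours high ratios of A771726 over DMSO in the A771726 list and low ones in the DMSO list. The contrast between the lists was therefore partly set by the choice and is not read as a finding. Of the top peaks with nucleotides, the second, at chr8:43095829-43096215, had 34 with A771726, 61 with nucleotides and 34 in DMSO, while the third, at chr11:65266310-65267221, had 25, 73 and 59. The fourth, at chr8:43092766-43093585, had 57 and 84 fragments and was without a DMSO peak, and the fifth, at chr9:22211457-22212343, had 21, 69 and 54.

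The width of the CDK9 peak at RN7SK with A771726 was close to that in DMSO. The peak with A771726 was 0.830 times as wide as in DMSO, against a median of 0.240 over the other 166 shared sites, and 94.6% of them had a lower value. Their median width was 116 bp with A771726, 539 bp with nucleotides and 513 bp in DMSO, so in DMSO RN7SK, with 535 bp, was of ordinary width for these sites. Widths of these lists are not on 1 scale. With A771726 and in DMSO the shortest peak was 50 and 128 bp, the lowest −log10 p 6.06 and 4.68, and the median width of all peaks 96 and 186 bp. The part of this in the width ratios was not tested. Width and pileup are read from the same fragments and are not separate evidence. The height ratio of nucleotides over DMSO at RN7SK, 0.852, was lower than at most of them: 24.7% of the other shared sites had a lower value and their median was 0.979. By fold enrichment the ratio at RN7SK, 0.467, was number 166 of 167, with 0.602% of the other sites lower and a median of 0.945, beside the local background of 13 steps with nucleotides and 6 in DMSO. Both ratios have the DMSO library in common.

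The CDK9 sites whose heights under the 3 treatments lay nearest to those of RN7SK were named by the Euclidean distance of the log2 heights over these 3 libraries. The nearest was chr10:103124522-103124774, at a distance of 0.43, with heights of 99.8 with A771726, 66.7 with nucleotides and 76.0 in DMSO. It was followed by chr17:19091220-19092046 at 0.72, chr11:65190174-65192404 at 0.76, chr1:16840258-16840866 at 0.91 and chr1:149223655-149224240 at 0.92. RN7SK had a raw pileup ratio of A771726 over DMSO of 0.770, against 0.584 at the first of these and 0.339 to 0.415 at the other 4. As heights the ratios were 1.73, 1.31 and 0.763 to 0.932, with the same doubt over the side of 1. No gene is assigned to these sites.

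Each CDK9 list had no peak in the 11 kb window other than that at RN7SK. The usual distance between neighbouring peaks was not worked out for these lists of 290, 3099 and 3462 peaks. The distances given here therefore do not set RN7SK apart. With A771726 the nearest other CDK9 peak towards lower coordinates was 16213 kb away and the nearest towards higher coordinates 80560 kb away. With nucleotides these distances were 346 and 46.3 kb, and in DMSO 418 and 2873 kb. The peak at 46.3 kb, chr6:52907017-52907149, was found with nucleotides, had 14 fragments and ranked number 2757. The protein-coding genes next to RN7SK in RefSeq, as ordered in GRCh38.p14, are GSTA4, a glutathione transferase, and CILK1, a ciliary kinase.

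DDX21 at RN7SK was weak. The DMSO peak, chr6:52860523-52860669, was 147 bp wide, lay inside the gene and inside the CDK9 peak, and covered 44.3% of RN7SK. Its pileup was 21 fragments (exact Poisson 95% interval 13.0 to 32.1) on a background of 5.04, with a fold enrichment of 3.64 and a −log10 q of 4.53. It ranked number 7867 of 8321, in the lowest decile of the list, and only 454 peaks lay below it. Its summit, at base 187 of the gene, was 72 bp from the CDK9 summit in DMSO. Over all CDK9 peaks, the share that overlapped a DDX21 peak of the same treatment was 15.5% with A771726 (11.5 to 20.2), 13.6% with nucleotides (12.4 to 14.8) and 17.8% in DMSO (16.5 to 19.1).

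The absence of a DDX21 peak with A771726 was what most weak DDX21 sites showed. Of all DDX21 DMSO peaks 51.1% (50.03 to 52.2) overlapped an A771726 peak and 86.3% (85.5 to 87.0) a peak with nucleotides, but in the lowest decile the shares were 1.08% (0.496 to 2.04) and 38.2% (34.9 to 41.6). With the DMSO background carried over by the lowest backgrounds of the lists, a summit needed at least 16 fragments with A771726 and 15 with nucleotides to reach the lowest −log10 p of its list. The DMSO pileup, scaled in the same way, was 20.1 and 19.0 fragments. A summit as tall as in DMSO would thus have been listed under these assumptions, and one about 5 fragments lower would not. The exact Poisson interval of the DMSO pileup, 13.0 to 32.1, spans the fragments needed. The pileups in the lists without a peak are unknown, so the missing peaks do not measure a difference between treatments. The nearest DDX21 peak, 68.7 to 68.8 kb away and starting at 52929493 in DMSO, was called under all 3 treatments and had a pileup of 71 (A771726), 194 (nucleotides) and 207 (DMSO).

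RN7SK has many near copies in the genome. RefSeq lists 293 pseudogenes with names of the form RN7SKP in GRCh38.p14. How reads that match several places were treated is not given in the sources used here, and the part of such reads in the RN7SK pileups was not tested. No sequence of the gene or its promoter is shown, since none was given for this gene.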

How the data were processed

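Chromatin immunoprecipitation libraries for CDK9 and DDX21 from A375 cells under 3 treatments were grouped by their titles, 1 library per group. The submitters' processing notes name Bowtie, MACS2 2.0 and hg19. Which parameters and which control were used is not given in the sources used here. In the deposited lists each peak has a position and summit, its fold over the local background (a ratio), the −log10 of its p-value and of its q-value, and a score that was not used.

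Each whole-number pileup was recovered from fold = (pileup + 1)/(background + 1) and the Poisson upper tail, which matched the deposited −log10 p within 0.001 for 100% of peaks. Height is pileup over the lowest background of the list. Tags relative to DMSO are the lowest background divided by the shortest peak. A shared site is a DMSO peak that overlaps a peak of both other CDK9 lists by at least 1 bp, with the tallest overlapping peak taken. A peak of those lists can count at more than 1 site. The read depth of the libraries is unknown. Intervals are exact binomial or Poisson 95% intervals, assume independent fragments and peaks, and leave out all error but that of counting. No p-value was computed.

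Named sites were the top 5 CDK9 peaks of each list and the 5 shared sites with the nearest heights. Sites taller than RN7SK, and the nearest peaks, were named after their values were seen. P-TEFb genes and promoter motifs, also intended, were not examined because no hg19 annotation or RN7SK promoter was at hand. The gene and all lists were chosen with earlier results of these data known. The recovery of pileups and the overlap calls were tested on simulated data. The estimated background steps, the scaling and the intervals were not. Python 3.11.15, SciPy 1.17.1 and pandas 2.3.3 were used.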

Additional observations from a re-analysis of the deposited data

How the results depend on the processing

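No paired analysis was possible because each antibody and treatment had 1 library. Of 74 alternatives, 66 of them planned and 8 added after the data were seen, 50 lay inside the 95% interval of the main value (for counts and ranks, within 1.5 times it), 20 moved and 4 reversed. The height ratio of A771726 over DMSO, 1.73, was 0.770 from raw pileups and 0.676 per tag, and that of A771726 over nucleotides, 2.03, was 0.851 and 0.787. Both scales leave out the extension length, which was only inferred from the shortest peak (50 bp with A771726, 129 bp with nucleotides and 128 bp in DMSO), and the cause was not tested. Ratios of fold enrichments were 3.21 for A771726 over nucleotides and 0.467 for nucleotides over DMSO, and on fold ratios 81.9% of other shared sites lay below RN7SK.

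The rank of RN7SK with A771726 was 2 by pileup and 5 by width, with nucleotides 210 by fold enrichment and 197 by width, and in DMSO 23 by pileup and 177 by width. With 50 kb added on each side, the window held 2 CDK9 peaks with nucleotides. At a −log10 q of at least 5 the DDX21 DMSO peak was lost, leaving 0.

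The same number of top peaks was then taken from each list of an antibody, 290 for CDK9 and 4375 for DDX21, so the antibodies were not matched. The shares of DMSO peaks found with A771726 were 32.4% for CDK9 and 88.5% for DDX21, and with nucleotides 51.0% and 93.1%. At a −log10 q of at least 5 they were 4.57% for CDK9 with A771726, and 52.3% and 87.5% for DDX21 with A771726 and with nucleotides. CDK9 with nucleotides was 41.5% when 50% of the shorter peak had to be covered, and DDX21 with nucleotides 85.2% for summits within 250 bp. Among the planned settings for shared sites, 91.9% to 93.8% of other sites lay below RN7SK.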
